A study of Mus musculus with 40 samples.

Results

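The genes described here are the 36 genes of the standard mouse proteasome whose symbols start with Psma, Psmb, Psmc or Psmd, followed by a number. They were chosen by name among the 24062 genes of the count table, leaving out the inducible subunits Psmb8, Psmb9 and Psmb10. RNA-Seq was done on passage 3 MEFs, primary mouse fibroblasts cultured from embryos of 13.5 days post coitum. All MEFs had a mixed C57BL/6J-129P2OlaHsd background, and Sall2, which encodes a zinc finger transcription factor, was intact (WT), lost on one allele (Het) or lost on both (KO). They were left untreated (control) or given 1 µM doxorubicin, an anthracycline that damages DNA, for 16 h. There were 1 WT, 1 Het and 3 KO embryos, hence 5 control libraries, but only 4 doxorubicin libraries were used. The doxorubicin libraries of KO 2 and KO 3 were identical over the 24062 genes and entered once, as KO 2. It is not known which of the 2 embryos they came from, and each within-embryo value of KO 2 and the replicate block rest on this assignment. Since Sall2 was targeted in 129P2-derived stem cells, loss of Sall2 and 129P2 DNA around it cannot be told apart in the KO embryos.

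The proteasome degrades proteins that carry ubiquitin chains. Its barrel-shaped core is built of alpha subunits (Psma genes), which form the outer rings and gate the entry, and beta subunits (Psmb genes), which form the inner rings and hold the proteolytic sites. The regulatory cap joins a ring of ATPases (Psmc genes), which unfold the substrate, with non-ATPase subunits (Psmd genes), which bind ubiquitin, remove it and hold the lid together. Psmd5, Psmd9 and Psmd10 are named as subunits but act as chaperones that assemble the base of the cap. In fibroblasts, as in other cells, most of these genes are expressed throughout, apart from the tissue-restricted subunits Psma8 and Psmb11. The transcription factor Nfe2l1 (NRF1) raises the broadly expressed subunit genes together when proteasome activity falls short.

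Library totals ran from 15560728 to 24122414 counts. Levels are given as CPM, counts divided by the TMM-scaled library total and multiplied by 1000000. Sall2 had 37.7, 24.0, 19.9, 24.3 and 19.02 CPM in control WT, Het, KO 1, KO 2 and KO 3. Among treated libraries it had 9.35 CPM in WT, 7.95 in Het, 4.23 in KO 1 and 3.72 in KO 2. KO libraries were below WT in both treatments but not at 0, and KO 2 was not below Het in control. A count per gene does not show which exons the reads came from, so it does not check the KO label by itself. Libraries of the Het embryo, in both treatments, and of KO 3 in control stood apart from the rest. Across genes, which are not independent replicates, log2 CPM of WT control correlated at 0.942 with Het control and 0.946 with KO 3, against 0.989 with KO 1 and 0.993 with KO 2. The 9 fibroblast markers (Col1a1, Vim and others) were above 3 counts in all libraries. Their summed level was 20350 CPM in Het control and 16500 in KO 3, against 78850 to 96050 CPM in the other 3 control libraries. With doxorubicin it was 22370 CPM in Het and 47600 to 59700 in the others. The 7 macrophage markers summed to 460 to 691 CPM in those 3 libraries and to 95.1 to 174 CPM elsewhere, and the 10 interferon-stimulated genes summed to 2257 and 2471 CPM in Het and KO 3 control against 46.3 to 64.5 CPM in the other controls. Single markers did not all follow these sums. The macrophage marker Csf1r was at 22.7 CPM in KO 3 control, below WT control at 28.6. The fibroblast marker Dcn, at 42.0 and 67.9 CPM in Het and KO 3 control, lay within the other controls (40.1 to 143 CPM). Endothelial, epithelial and Schwann cell lists summed to at most 39.2 CPM in any library. The part of these differences in the results below was not tested, and the counts of proteasome genes called with doxorubicin are also given without these libraries.

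Of the 36 genes, 34 had more than 3 counts in every library, between 381 and 11047. The other 2 are subunits restricted to 1 tissue. Psma8, an alpha subunit of the testis, had 0 to 10 counts per library, and Psmb11, a beta subunit of the thymus cortex, had 0 to 18. Intervals and limits based on counts cover counting error only. In bulk RNA, fewer cells of a type and less RNA per cell cannot be told apart.

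To set levels of different genes side by side, CPM was divided by the exon length in kb. In control libraries the median level per kb of the 7 alpha ring genes ranged from 20.1 (Psma3) to 164 CPM per kb (Psma7). For the 7 beta ring genes it ranged from 56.7 (Psmb5) to 153 CPM per kb (Psmb4), and for the 6 ATPases from 63.1 (Psmc6) to 122 CPM per kb (Psmc3). The 11 non-ATPase subunits had the widest range of the 5 groups in absolute terms, from 27.0 (Psmd11) to 251 CPM per kb (Psmd8, a lid subunit). The 3 chaperones were low, at 13.6 to 18.6 CPM per kb. Both ends of the alpha ring range depend on the transcript taken as the length. Psma3 was at 20.1 CPM per kb over 2846 bp and 66.5 CPM per kb over the 859 bp of its short transcript. Psma6 was at 126 CPM per kb over 1148 bp and 183 CPM per kb, above Psma7, over the 787 bp of its short transcript.

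**Figure D1:**
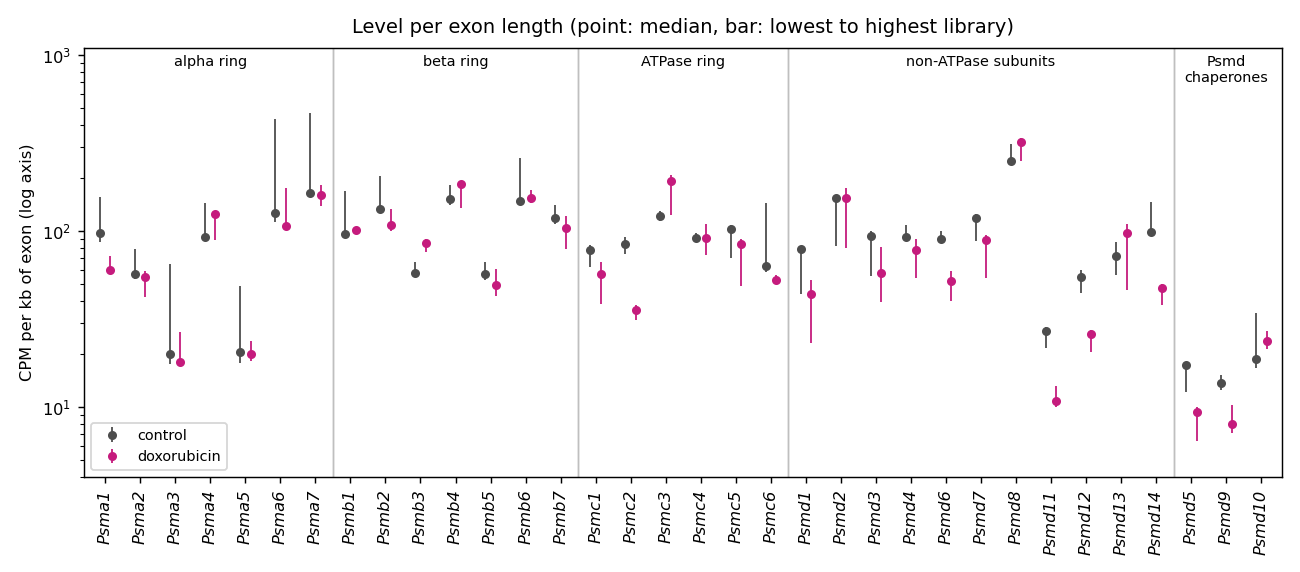
Level of the 34 genes detected in every library, in CPM per kb of exon on a log axis, grouped by their place in the particle. Points are medians of 5 control (grey) or 4 doxorubicin (magenta) libraries and bars reach from the lowest to the highest library. Psmd11 and Psmd12 lie lower with doxorubicin without overlap, while most beta ring genes overlap.

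Doxorubicin against control asks whether the treatment changed the RNA of the particle as a whole or only of some subunits. Of 36 genes tested, 8 fell and 1, Psmb11, was called higher at an adjusted p (FDR) under 0.01 in edgeR's quasi-likelihood test with genotype as a covariate. Among all 16656 genes tested, 18.7% fell and 21.9% rose, so the 8 of 36 that fell were near the share of all genes. Psmb11 met the filter on low counts only through the treated libraries, so its call is not read as a rise, and 0 of the other 35 rose. The median log2 fold change was -0.39 over the 36 genes and 0.02 over all genes, and -0.19 and 0.07 without the Het embryo and KO 3, with the embryo as a block. The genes that fell were Psmd14, Psmc2, Psmd11, Psmd12, Psmd6, Psma1 and the chaperones Psmd5 and Psmd9. By group, 1 of 7 alpha ring genes fell, 0 of 7 beta ring genes, 1 of 6 ATPases, 4 of 11 non-ATPase subunits and 2 of 3 chaperones.

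The numbers in the labels pair control and doxorubicin libraries of the same embryo. In the fit with a replicate block for the embryo, 12 genes fell and 3, Psmb11 among them, were called higher of 35 tested, where 27% of 16577 genes fell and 30.1% rose. All 8 genes that fell without the block fell with it. The block added Psmc1, Psmd1, Psmd3 and Psmd7 to those that fell, and Psmb3 and Psmc3 to those that rose. Without the Het embryo and KO 3, and with that block, 15 genes fell and 7 rose of 34 tested, against 35.5% and 39.3% of 15442 genes. With another scaling of the libraries, by the upper quartile, the split of the calls was 6 lower and 3 higher (Psmb3, Psmc3 and Psmb11). That scaling moved the median of all genes to a log2 fold change of 0.21, and the 36 genes had a median of -0.20.

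The promoters of the 4 genes with the largest decrease are shown because these genes of the cap, 1 ATPase and 3 lid subunits, changed most. Each is the RefSeq window of 250 bases before to 50 after the start of transcription in GRCm38.p6, written 5′ to 3′ along the gene. Capitals mark the ETS core CCGGAAG and the antioxidant response core TGACNNNGC on either strand.
Psmd14 (chr2:61711444-61711743, + strand): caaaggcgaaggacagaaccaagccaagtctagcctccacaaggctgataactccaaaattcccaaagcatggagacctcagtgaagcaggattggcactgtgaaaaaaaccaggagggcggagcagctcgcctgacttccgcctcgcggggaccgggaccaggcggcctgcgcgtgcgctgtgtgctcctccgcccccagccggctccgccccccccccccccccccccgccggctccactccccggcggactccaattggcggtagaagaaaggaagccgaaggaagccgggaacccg
Psmc2 (chr5:21785025-21785324, + strand): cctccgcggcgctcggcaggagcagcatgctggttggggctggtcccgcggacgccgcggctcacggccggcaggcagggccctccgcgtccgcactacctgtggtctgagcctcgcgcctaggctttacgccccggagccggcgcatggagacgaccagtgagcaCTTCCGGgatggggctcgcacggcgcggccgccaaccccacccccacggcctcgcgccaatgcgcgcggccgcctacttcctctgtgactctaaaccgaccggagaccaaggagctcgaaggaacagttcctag
Psmd11 (chr11:80428365-80428664, + strand): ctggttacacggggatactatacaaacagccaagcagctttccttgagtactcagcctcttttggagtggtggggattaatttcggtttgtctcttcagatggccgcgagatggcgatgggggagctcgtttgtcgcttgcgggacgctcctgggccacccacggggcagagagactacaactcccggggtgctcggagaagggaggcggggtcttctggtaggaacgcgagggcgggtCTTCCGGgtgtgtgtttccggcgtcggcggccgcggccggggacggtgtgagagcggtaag
Psmd12 (chr11:107479278-107479577, + strand): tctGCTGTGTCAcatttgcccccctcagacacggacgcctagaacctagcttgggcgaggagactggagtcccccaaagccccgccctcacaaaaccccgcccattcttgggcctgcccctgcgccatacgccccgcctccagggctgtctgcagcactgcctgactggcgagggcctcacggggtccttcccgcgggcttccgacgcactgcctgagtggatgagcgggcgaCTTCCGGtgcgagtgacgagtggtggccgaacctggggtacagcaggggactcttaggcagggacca
CTTCCGG is CCGGAAG read on the other strand. The ETS core stood in the windows of Psmc2, Psmd11 and Psmd12 and was not in that of Psmd14, and Psmc2 has a further RefSeq start with a match, 1464 bases downstream of its GENCODE start. RefSeq windows were matched for 29 of the 36 genes, 31 windows in all, and not for Psmd3, Psmb1, Psmb2, Psmb7, Psmc3, Psmd7 and Psma8. CCGGAAG, searched on both strands, was in 11 of 31 windows (35.5%) of 10 genes, against 8.9% of 32851 windows of all genes and 14.4% of 15424 windows of genes tested. Those genes were Psma6, Psmc1, Psmc2, Psmc6, Psmd2, Psmd4, Psmd6, Psmd11, Psmd12 and Psmd13, of which 4 fell with doxorubicin. Psmd14, Psma1, Psmd5 and Psmd9 fell as well, without this core in their windows. A link between the core and the fall was not tested. TGACNNNGC, the core bound by NRF1 and NRF2, was in 5 of 31 windows (16.1%), those of Psmb5, Psmb6, Psmc6, Psmd9 and Psmd12, against 12.4% of all windows and 14.1% of those of genes tested. CCAAT was in 12 windows (38.7%) against 37.4% and 37.0%. These matches describe the letters of the windows and no binding was measured.

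Psmd14 encodes the deubiquitinase of the lid, which cuts the ubiquitin chain from the substrate. In control WT, Het, KO 1, KO 2 and KO 3 it had 144, 180, 151, 145 and 225 CPM, and in treated WT, Het, KO 1 and KO 2 it had 77.1, 58.5, 73.0 and 72.8 CPM. All treated libraries were below all controls, and Het and KO 3, the highest controls, set much of the spread. The mean was 169 ± 34.4 CPM (SD, n = 5) in control and 70.3 ± 8.16 (SD, n = 4) with doxorubicin. The fitted log2 fold change was -1.26 ± 0.19 (SE, edgeR adjusted p = 0.00071), that is 41.9% of the control level. Without the Het embryo and KO 3 it was -0.98 ± 0.08 with the block.

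Psmc2, an ATPase of the ring that threads substrates into the core, had 165, 132, 154, 150 and 151 CPM in control WT, Het, KO 1, KO 2 and KO 3. With doxorubicin it had 64.0, 55.8, 67.9 and 63.5 CPM in WT, Het, KO 1 and KO 2. The groups were far apart and the log2 ratios of the 4 embryos lay between -1.37 in WT and -1.18 in KO 1. The fitted log2 fold change was -1.25 ± 0.13 (SE, edgeR adjusted p = 8.45e-05), the smallest adjusted p of the 36 genes.

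Psmd11 encodes a lid subunit that braces the cap against the core. Its level was 76.9, 61.9, 80.6, 77.6 and 64.5 CPM in the controls in the same order, and 29.7, 28.4, 37.2 and 32.0 CPM in WT, Het, KO 1 and KO 2 with doxorubicin. Its log2 fold change was -1.17 ± 0.14 (SE, edgeR adjusted p = 0.000194). Psmd12, another lid scaffold, was at 104, 84.3, 113, 103 and 92.4 CPM in the controls in the same order and at 48.3, 39.2, 51.7 and 49.96 CPM with doxorubicin. Its log2 ratio within embryos varied little, from -1.13 in KO 1 to -1.05 in KO 2, and the fitted value was -1.06 ± 0.13 (SE, edgeR adjusted p = 0.000204). Both genes had no overlap between treated and control libraries.

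Psmd6, also a lid subunit, was at 119 to 139 CPM in the 5 controls (median 125) and at 69.5, 55.1, 81.6 and 74.7 CPM in treated WT, Het, KO 1 and KO 2. Its log2 fold change was -0.86 ± 0.13 (SE, edgeR adjusted p = 0.000769). Psma1, the alpha ring gene that fell, was at 112, 167, 117, 103 and 188 CPM in the controls and at 74.2, 68.1, 86.6 and 70.3 CPM with doxorubicin. Its log2 ratio was -1.29 in Het and -0.43 to -0.59 in the other embryos, and the fitted value of -0.86 ± 0.22 (SE, edgeR adjusted p = 0.00934) became -0.53 ± 0.08 without the Het embryo and KO 3, with the block. Among the chaperones, Psmd5 was at 53.3 to 79.4 CPM in control and 28.0 to 43.9 CPM with doxorubicin, and Psmd9 at 32.3 to 39.2 and 18.5 to 26.4 CPM. Their log2 fold changes were -0.83 ± 0.15 and -0.72 ± 0.16 (SE, edgeR adjusted p = 0.00158 and 0.00427). The calls of Psma1 and Psmd9 were lost with total counts or upper-quartile scaling and when the WT, Het, KO 1 or KO 2 embryo was left out, that of Psmd5 without WT, KO 1 or KO 2, and those of Psmd6 and Psmb11 without KO 1 or KO 2. Psmd14, Psmc2, Psmd11 and Psmd12 kept their call in each of 18 alternatives.

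**Figure D2:**
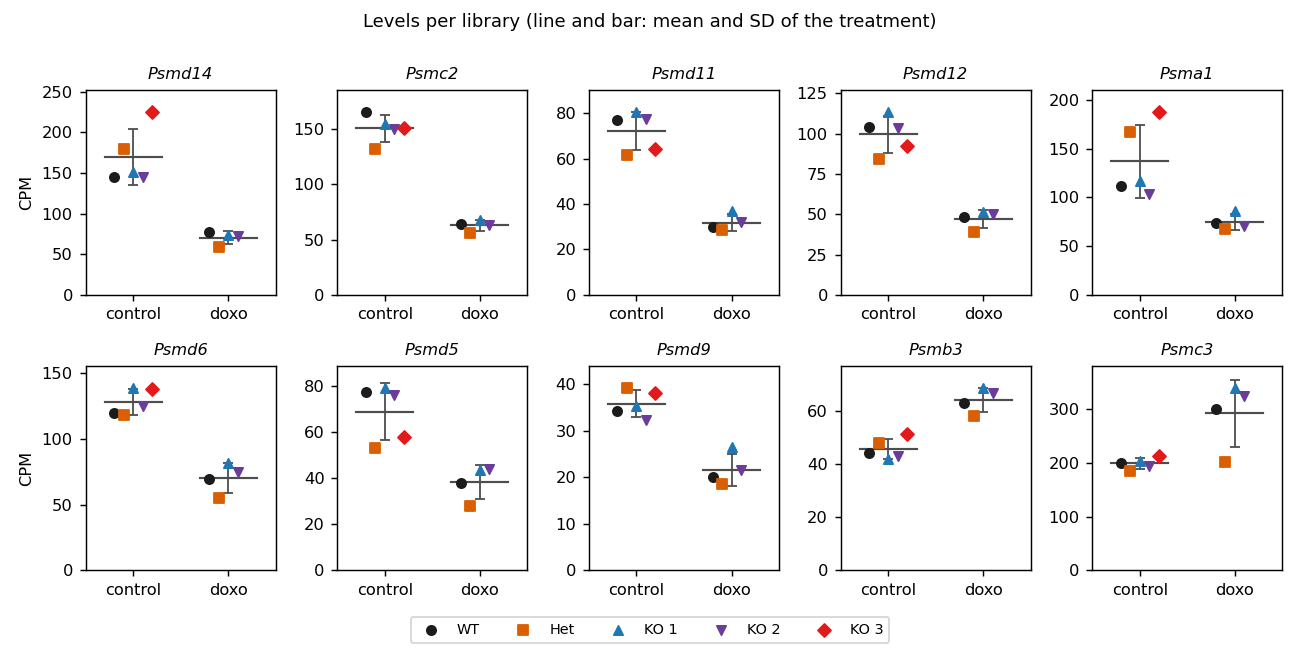
CPM per library of the 8 genes that fell and of Psmb3 and Psmc3, with symbols for the embryos. Lines and bars are the mean and SD of 5 control and 4 doxorubicin libraries. For each of the 8 genes every treated library lies below every control, and for Psmc3 the treated Het library, at 202 CPM, lies among the controls.

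Psmb11 had counts of 0, 3, 0, 0 and 0 in WT, Het, KO 1, KO 2 and KO 3 control, and of 6, 18, 6 and 8 in treated WT, Het, KO 1 and KO 2. Over all libraries there were 38 counts with and 3 without doxorubicin, given as a description because of how the gene met the filter. Its highest level was 0.872 CPM, in the treated Het library, far under that of the other beta genes.

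The catalytic subunits did not pass the threshold. Psmb5, which carries the chymotrypsin-like site, was at 59.4, 54.3, 47.8, 47.4 and 50.97 CPM in control WT, Het, KO 1, KO 2 and KO 3, and at 54.9, 38.3, 48.9 and 39.1 CPM in treated WT, Het, KO 1 and KO 2. Its log2 fold change was -0.22 ± 0.14 (SE, edgeR adjusted p = 0.201). Psmb6, which carries the caspase-like site, was at 115, 180, 117, 118 and 207 CPM in the controls and at 128, 114, 136 and 117 CPM with doxorubicin. The 3 embryos other than Het had ratios of -0.01 to 0.21 and Het had -0.65. Psmb7, which carries the trypsin-like site, was at 144, 136, 162, 137 and 128 CPM in the controls and at 126, 91.5, 141 and 115 CPM with doxorubicin. The fitted values of Psmb6 and Psmb7 were -0.23 ± 0.22 and -0.26 ± 0.16 (SE, edgeR adjusted p = 0.404 and 0.191). Of the exon bases of Psmb7, 34.9% overlap the gene Nek6 on the other strand, and the strand setting of the counting is not given in the sources used here, so its counts are uncertain. The same holds to a lesser degree for Psmd13, with 17.2% of its exon bases on Sirt3. It also holds for Psma4, Psma5 and Psmd3, with up to 9.8%. Psmb5 and Psmd1 overlap Mir686 (12.1%) and Gm21972 (9.7%) on the same strand, where strand does not separate the reads. The pseudogenes of Psmb5, Psmb6 and Psmb7 may share reads with them.

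Psmd4, a ubiquitin receptor of the cap, was at 145, 123, 124, 132 and 125 CPM in the controls and at 105, 72.0, 121 and 104 CPM with doxorubicin. All treated libraries were below all controls, but the log2 ratio within embryos ranged from -0.77 in Het to -0.04 in KO 1. Its fitted value was -0.38 ± 0.15 (SE, edgeR adjusted p = 0.0621). In all, 10 of the 36 genes had every treated library below every control, where 21.6% of all genes tested did, and 2 had every treated library above, where 24.8% of all genes did. The 10 were the 8 called genes with Psmc6 and Psmd4, and the 2 were Psmb3 and Psmb11. Psmb11 met the filter only through the treated libraries, so its place here is not read as a rise. The gene nearest to 0 was Psmc4, an ATPase, at 131, 132, 139, 130 and 135 CPM in the controls and at 133, 105, 157 and 128 CPM with doxorubicin, with a log2 fold change of -0.03 ± 0.14 (SE).

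Beta ring gene Psmb3, a structural subunit without a proteolytic site, and Psmc3, an ATPase of the ring, moved the other way. Psmb3 was at 44.1, 48.1, 41.9, 42.9 and 51.2 CPM in the controls and at 63.2, 58.3, 68.8 and 66.6 CPM with doxorubicin. Its log2 fold change of 0.50 ± 0.13 (SE, edgeR adjusted p = 0.0108) narrowly missed the threshold, and with the replicate block it was 0.54 ± 0.11 (edgeR adjusted p = 0.00289). Psmc3 was at 200, 185, 203, 193 and 212 CPM in the controls and at 300, 202, 339 and 325 CPM with doxorubicin. Its fold change was 0.55 ± 0.16 (SE, edgeR adjusted p = 0.0173), and 0.55 ± 0.12 with the block (edgeR adjusted p = 0.00418). Within the ATPase ring, Psmc2 and Psmc3 thus moved in opposite directions in the 4 embryos.

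Within embryos, 17 of the 36 genes were lower with doxorubicin in all 4 and 3 were higher in all 4, namely Psmb3, Psmc3 and, at low counts, Psmb11. The share of all genes with such directions was not computed, so these counts describe the 36 genes alone. The log2 ratio of the Het embryo was the lowest of the 4 for 30 of the 36 genes, and for each of the 7 alpha and 7 beta ring genes. This was not counted over all genes, so it is not read as particular to proteasome genes. The median log2 ratio over the 36 genes was -0.69 in Het, -0.12 in WT, -0.02 in KO 1 and -0.19 in KO 2. Over all genes it was -0.03 in Het, 0.12 in WT, 0.13 in KO 1 and 0.10 in KO 2. In WT, KO 1 and KO 2 the alpha ring had medians of -0.03 to 0.01 and the beta ring of -0.01 to 0.16. The non-ATPase subunits had medians of -0.40 to -0.74 in the same embryos. Without the Het embryo and KO 3, with the block, 8 of 11 non-ATPase subunits fell and 2 rose (Psmd8 and Psmd13), and of the 14 core ring genes 1 fell and 3 rose (Psma4, Psmb3 and Psmb4), where 35.5% of all genes fell and 39.3% rose in the same fit. The difference between the groups was not tested.

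**Figure D3:**
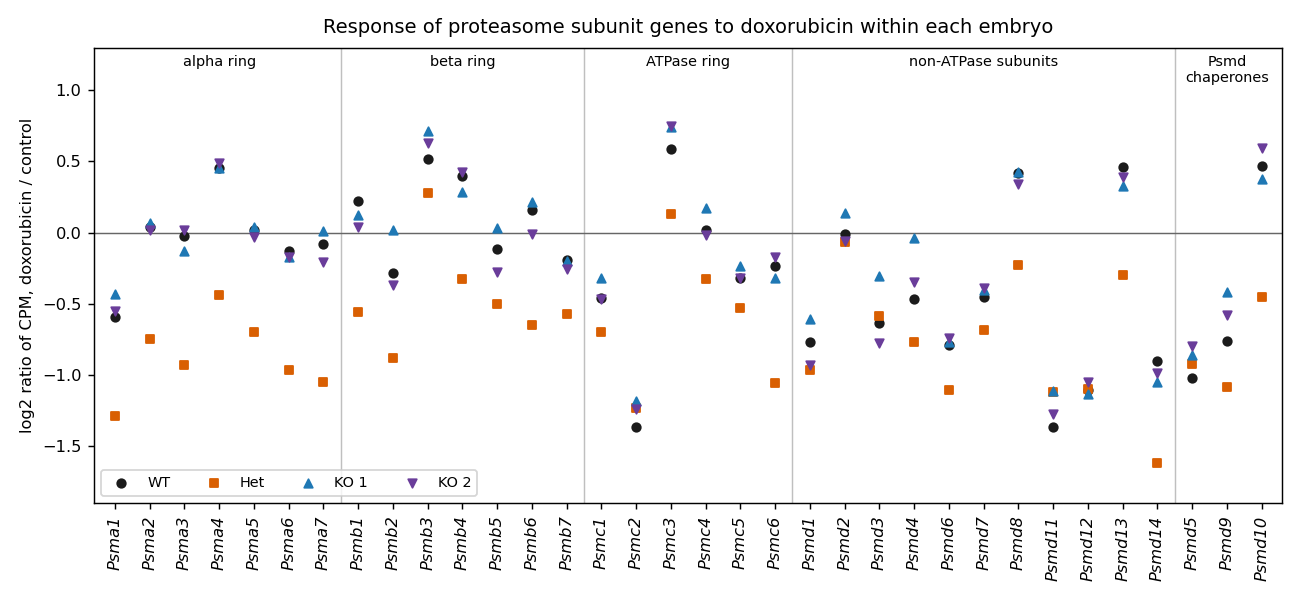
Log2 ratio of CPM with doxorubicin to control within each of 4 embryos, for the 34 genes detected in every library, grouped by their place in the particle. Points of WT, KO 1 and KO 2 lie close together for most genes, with the alpha and beta ring near 0 and Psmc2, Psmd11, Psmd12 and Psmd14 near or under -1, while Het lies lowest for most core genes.

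Summed over each group, the alpha ring genes had 726 CPM in WT control and 711 with doxorubicin, and 766 and 764 CPM in KO 1. In Het the sum was 1445 CPM in control and 767 CPM with doxorubicin, close to the treated sums of the other embryos. The non-ATPase subunits summed to 2221 and 1914 CPM in WT, 2292 and 2089 in KO 1, 2183 and 1812 in KO 2 and 1772 and 1199 in Het. The lower response of the core genes in Het thus stood beside a higher level in its control library.

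The span from the first to the last exon of their RefSeq transcripts ran from 2264 bp (Psmb6) to 88683 bp (Psmd14), the gene with the largest decrease, while Psmc3 spans 5424 bp. Across the 34 detected genes Spearman's correlation of span and log2 ratio was -0.47 in WT, -0.52 in Het, -0.52 in KO 1 and -0.46 in KO 2. Across 14961 of the genes tested it was -0.19, -0.12, -0.22 and -0.20. These values are descriptions, since genes share libraries and the embryos share genes, and exceptions were Psmb7 (56052 bp, ratio -0.20 in WT) and Psma6 (34233 bp, -0.13 in WT).

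**Figure D4:**
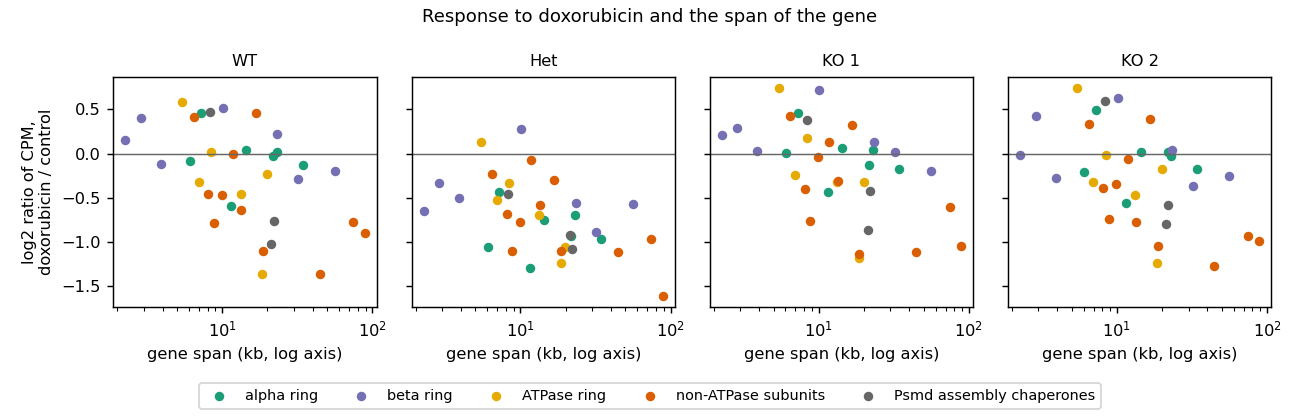
Log2 ratio of CPM with doxorubicin to control (y axis) against the span of the gene in kb (x axis, log scale) in each of 4 embryos, with colours for the groups of subunits. Genes of long span, such as Psmd14 and Psmd11, lie low in each embryo, with correlations of -0.46 to -0.52.

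KO against WT asks whether loss of Sall2 moved these genes. In control, 0 of the 35 genes tested passed the threshold and 0 had an unadjusted p under 0.05 in edgeR, and DESeq2 called 0 as well. Of all 14470 genes tested, 0% were called. Fitted log2 differences of the detected genes ran from -0.26 (Psmb5) to 1.04 (Psma6), with a median of 0.08 over the 35 genes. The large positive values came from KO 3. For Psma6, an alpha subunit, control WT, Het, KO 1, KO 2 and KO 3 had 128, 395, 144, 132 and 496 CPM, and the fitted difference was 1.04 ± 0.98 (SE, edgeR adjusted p = 1). Since WT had 1 library, the spread comes from KO alone, and with KO 3 apart from KO 1 and KO 2 a count of 0 here does not show that the genes did not differ.

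Against the WT library, Het and KO 3 control were higher in all 7 alpha ring genes, with medians of log2 ratios of 1.11 and 1.45. KO 1 and KO 2 had medians of 0.06 and -0.02. Psma3 was at 50.4 CPM in WT and 57.1 and 49.6 in KO 1 and 2, but 144 in Het and 184 in KO 3. Psma7 was at 149, 150 and 146 CPM in WT, KO 1 and KO 2, and 346 and 430 CPM in Het and KO 3. The base scaffolds went the other way. Psmd1 was at 247, 250 and 246 CPM in WT, KO 1 and KO 2, and 140 and 137 CPM in Het and KO 3. Psmd2 was at 473, 474 and 457 CPM against 247 and 242 CPM. Of the 36 genes, 12 exceeded a log2 ratio of 0.5 in Het and 14 in KO 3, and 5 and 4 lay under -0.5, where among all genes 35.5% and 33.9% exceeded 0.5 and 26.2% and 27.7% lay under -0.5. In KO 1 and KO 2 the counts were 1 and 0 above and 0 and 1 below, both of them Psma8 with its low counts, where among all genes 11.4% and 8.5% lay above and 10.0% and 8.1% below. These ratios share the WT library and have no replicate in Het.

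**Figure D5:**
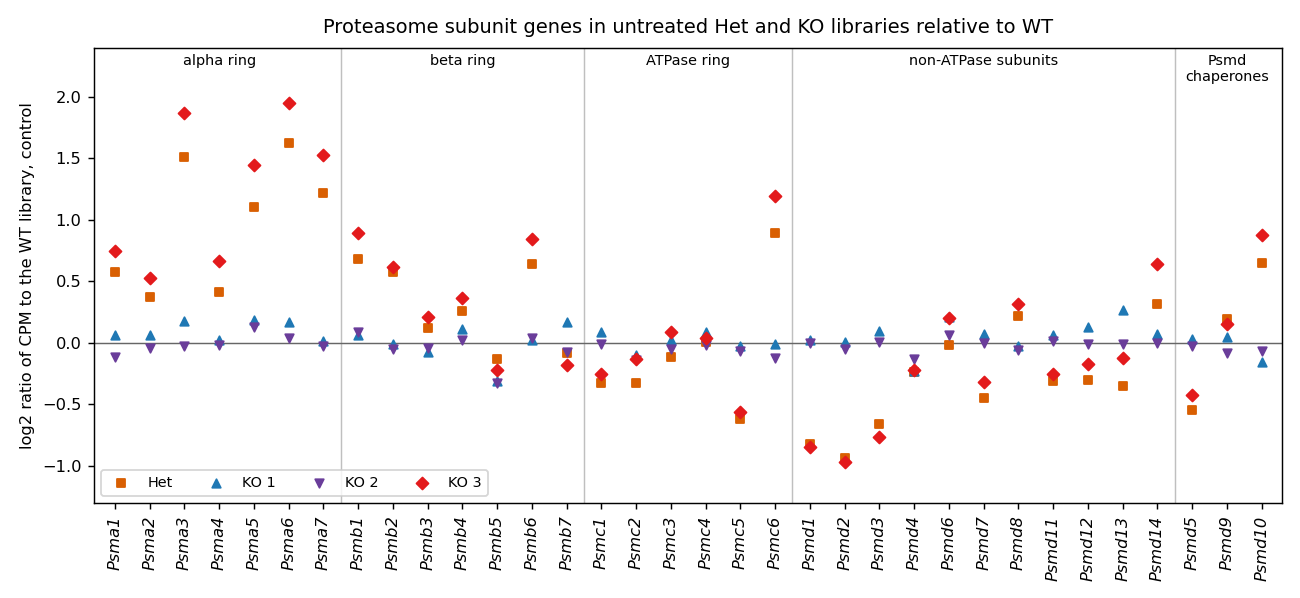
Log2 ratio of CPM in the Het, KO 1, KO 2 and KO 3 control libraries to the WT control library for the 34 genes detected in every library. Het and KO 3 lie together, up to 1.95 in the alpha ring (Psma6) and down to -0.97 (Psmd2), while KO 1 and KO 2 lie near 0.

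With exon length the Het and KO 3 ratios had Spearman correlations of -0.43 and -0.39 across the 34 genes, and of -0.27 and -0.34 across 14961 genes. The 9 genes with exons of up to 1200 bp had median ratios of 0.41 and 0.62 in Het and KO 3, and the other 25 had -0.11 and 0.04. All genes of those length classes had medians of 0.67 and 0.80, and of -0.05 and -0.07. The genotype of Het differs from that of KO 3, and the share of length or sample quality in these ratios was not tested.

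With doxorubicin, 0 of 34 genes tested differed between KO and WT, at an unadjusted p under 0.05 as well as past the threshold in edgeR, where 30 of 15256 genes (0.197%) did. DESeq2 called 0 of the 34. The fitted log2 differences ran from -0.33 (Psmb5) to 0.25 (Psmd9), with a median of 0.04. This fit has 1 residual degree of freedom and WT has 1 library, so that its p-values rest on the spread between KO 1 and KO 2. The interaction of genotype and treatment was past the threshold for 0 of 35 genes, with 0 at an unadjusted p under 0.05 in edgeR and 0 called by DESeq2, and for 0% of 15905 genes. On simulated data this test and that of KO against WT in control recovered few of the changed genes, so their counts of 0 say little about whether these genes differed. For Psmd14 it was -0.35 ± 0.51 (SE) and for Psmb5 -0.04 ± 0.36 (SE) on the log2 scale.

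Psmb5 had the lowest fitted KO to WT difference of the detected genes in both treatments. Its log2 ratios to WT were -0.31, -0.32 and -0.22 in KO 1, 2 and 3 control, and -0.17 and -0.49 in treated KO 1 and 2. The mean was 48.7 ± 1.94 CPM (SD, n = 3) in KO control against 59.4 in WT, and 44.0 ± 6.88 CPM (SD, n = 2) against 54.9 with doxorubicin. The fitted differences were -0.26 ± 0.29 and -0.33 ± 0.19 (SE, edgeR adjusted p = 1 for both). Psmb5 lies on chromosome 14 from 54614119 to 54618022 (GRCm38, minus strand), 2285 kb from Sall2, as do Psmb11, Psmc6 and Psmd6 at 2293, 6962 and 38190 kb. In KO 1, 2 and 3 control, Psmc6 had log2 ratios to WT of -0.01, -0.12 and 1.197, and Psmd6 of 0.21, 0.06 and 0.20.

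The inducible subunits replace the catalytic beta subunits when cells are exposed to interferon. Psmb8 had 13, 572, 27, 14 and 612 counts in WT, Het, KO 1, KO 2 and KO 3 control, and 59, 397, 52 and 53 in treated WT, Het, KO 1 and KO 2. Psmb9 had 6, 69, 4, 3 and 87 counts in the controls and 248, 453, 257 and 402 with doxorubicin. Het and KO 3 were the highest controls for both, and these are the libraries with the high interferon-stimulated genes. Of the 3 inducible genes 1 rose with doxorubicin, Psmb9, where 21.9% of all genes rose. Its log2 fold change was 3.68 ± 0.83 (SE, edgeR adjusted p = 0.0053), and with the replicate block 4.70 ± 0.54. Of the exon bases of Psmb9, 15.7% overlap the gene Tap1 on the other strand, and the strand setting of the counting is not given. Psmb8 and Psmb10 had -0.71 ± 1.17 and -0.36 ± 0.41 (SE), and Psmb10 was at 10.6 to 41.5 CPM in control and 13.5 to 24.2 CPM with doxorubicin. Without the Het embryo and KO 3, with the block, both directions turned, to 1.56 ± 0.28 for Psmb8 and 0.32 ± 0.12 for Psmb10 (SE). Het and KO 3 had the highest control levels of both genes and were left out after the data were seen. The turn is therefore a description, and 39.3% of all genes rose in that fit. The standard counterparts Psmb5, Psmb6 and Psmb7 did not pass the threshold in the same fit.

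Of 5 core assembly chaperones, 2 fell and 0 rose, where 18.7% of all genes fell, with a median log2 fold change of -1.04. Without the Het embryo and KO 3, with the block, 2 fell and 1 rose, where 35.5% and 39.3% of all genes did, with a median of -0.27. Psmg1, which pairs alpha subunits, was at 20.2, 17.7, 22.9, 22.2 and 22.3 CPM in control and 6.86, 13.8, 6.07 and 5.88 CPM with doxorubicin (-1.47 ± 0.27, SE, edgeR adjusted p = 0.00178), and Psmg3 fell by 1.05 ± 0.18 on the log2 scale. Pomp, which matures the core, was at 108, 150, 122, 104 and 174 CPM in control and 214, 177, 219 and 207 CPM with doxorubicin. Its fold change was 0.64 ± 0.20 (SE, edgeR adjusted p = 0.0215), and 0.76 ± 0.14 with the replicate block (edgeR adjusted p = 0.00147). Of 5 activators and the inhibitor of the core (Psme1 to Psme4, Psmf1), 0 passed the threshold, with a median of -0.07, and with the block Psme2 and Psmf1 rose and Psme3 fell. Of the 5, 3 rose and 2 fell without the Het embryo and KO 3, with the block, where 39.3% and 35.5% of all genes did. Of 4 proteins associated with the cap, 1 fell, where 18.7% of all genes did. It was Usp14, a deubiquitinase, at -1.15 ± 0.20 (SE, edgeR adjusted p = 0.00155), and the median of the 4 was -0.34. Of the exon bases of Usp14, 45.9% overlap the gene Thoc1 on the other strand, so its counts are uncertain without a known strand setting.

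Of 10 genes that act with or on NRF1, 2 rose and 3 fell, near the shares of all genes (21.9% and 18.7%), and the median was -0.09. With the block and without the Het embryo and KO 3, 4 rose and 5 fell, where 39.3% and 35.5% of all genes did, with a median of -0.07. Nfe2l1 was at 579, 441, 522, 555 and 394 CPM in control and 877, 707, 826 and 804 CPM with doxorubicin. Treated libraries were all above the controls, and the fold change was 0.69 ± 0.19 (SE, edgeR adjusted p = 0.0138), or 0.62 ± 0.09 with the replicate block (edgeR adjusted p = 0.000361). Its partners Maff and Mafk rose by 1.19 ± 0.19 and 1.23 ± 0.18 on the log2 scale. Ddi2, the protease that cuts NRF1, Ngly1, which removes its sugars, and Nploc4, a cofactor of Vcp, fell by 1.06 ± 0.20, 1.31 ± 0.17 and 0.81 ± 0.20 (SE, edgeR adjusted p = 0.00223, 0.00032 and 0.00781). Among ubiquitin genes and shuttle factors, Ubb, which encodes ubiquitin, rose by 0.82 ± 0.16 on the log2 scale (SE, edgeR adjusted p = 0.00259). Rad23b, which carries ubiquitin chains to the cap, fell by 2.15 ± 0.26 (SE, edgeR adjusted p = 0.0002).

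As a check of the treatment, 1 of 8 p53 targets rose, Plk3, by 1.59 ± 0.14 (SE, edgeR adjusted p = 4.92e-05), and 0 fell, with a median of -0.23. Among all genes 21.9% rose and 18.7% fell, so this check did not show a rise of p53 targets as a set. Cdkn1a was at 392 to 555 CPM in control and 271 to 337 CPM with doxorubicin, lower in each treated library than in any control. Its log2 fold change was -0.67 ± 0.19 (SE, edgeR adjusted p = 0.0145), short of the threshold. The interferon-stimulated genes had a median log2 fold change of -0.55 with 0 of 10 called, but without the Het embryo and KO 3 all 10 rose with a median of 3.27, or 3.29 with the block. In that fit 5425 of 15442 genes rose, and 39.3% with the block. Het and KO 3 had the highest control levels of this list and were left out after the data were seen. The rise of all 10 is therefore a description.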

How the data were processed

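RNA-Seq reads of 10 libraries (40 deposited samples, 4 lanes each) had been counted per gene. Per the methods, the authors merged the FASTQ files, aligned them to mm10 with HISAT2 (2.1.0 in the submitters' processing notes), sorted with Picard and counted with HTSeq in union mode on iGenomes genes, with no strand setting given, and deposited whole-number counts without normalization. Libraries were grouped by genotype, treatment and embryo from their labels.

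Counts were analysed here in R 4.3.3 with edgeR 4.0.16 (TMM, filterByExpr, quasi-likelihood test, two-sided, Benjamini-Hochberg adjustment over all genes tested, FDR under 0.01) and DESeq2 1.42.0. Log2 ratios of single libraries used a prior count of 2. SE is the fold change divided by the root of F. Lengths and positions come from GENCODE on GRCm38, promoters from RefSeq on GRCm38.p6. Alternatives were DESeq2, other scalings and filters, thresholds of 0.05 and 0.001 for the FDR, a replicate block for the embryo, treatment without genotype, RUVg, an exact test, a fit of all libraries for KO against WT and each embryo left out in turn, and, chosen after seeing the data, leaving out the Het embryo and KO 3 together. On simulated data the test recovered most changed genes for doxorubicin, but few for KO against WT in control and for the interaction. Where nothing says that samples are separate cultures, p-values measure the spread between these samples.

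The pairing comes from the shared numbers in the labels, taken as embryos. Across 16656 genes, deviations of paired libraries from their treatment means correlated at 0.727 (Het), 0.57 (KO 1), 0.481 (KO 2) and 0.475 (WT), and the KO 1 to KO 2 difference at 0.342.

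Described in full are Psmb5, Psmb6, Psmb7, Psmd14, Psmd4, the 5 largest increases and decreases past the threshold, the gene nearest to 0, and called genes of the other lists, of which a result among ubiquitin genes is not reported here. Psmb3, Psmc3, Psma3, Psma6, Psma7, Psmd1 and Psmd2 were added after their values were seen. The members and lists were chosen with earlier results of these data known.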

Additional observations from a re-analysis of the deposited data

Results flagged for a closer look

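Among the 4 doxorubicin libraries, the Het library stood apart by Dixon's test for 7 genes. It was the highest for Psma3 (75.4 CPM) and Psma6 (202 CPM), and the lowest for Psma4 (104 CPM), Psmb4 (159 CPM), Psmc5 (63.6 CPM), Psmd7 (85.8 CPM) and Psmd13 (91.2 CPM). Among the 5 control libraries, Het stood apart for Psmb11, at 0.123 CPM where the others had 0, a case that any count among zeros would give. Chance marks about 1 in 20 such groups. How often Het stood apart was not counted over all genes, so the 7 are not read as particular to proteasome genes. Across genes, log2 CPM of treated Het correlated at 0.939 to 0.947 with the other treated libraries, and those at 0.988 to 0.991 with each other.

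For 8 genes the log2 ratio of doxorubicin to control was negative in Het and positive in WT, KO 1 and KO 2. The share of all genes with this pattern was not computed. It was -0.751 for Psma2, -0.44 for Psma4, -0.556 for Psmb1, -0.329 for Psmb4, -0.226 for Psmd8, -0.453 for Psmd10 and -0.299 for Psmd13 in Het. For Psma8, with at most 10 counts per library, it was -0.546. With 1 Het embryo the difference between genotypes was not tested.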

How the results depend on the processing

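For doxorubicin against control, the proteasome genes past the threshold went from 9 to 14 of 36 at an FDR of 0.05 and to 5 at 0.001. All genes called went from 6760 to 9258 of 16656 at 0.05 and to 3430 at 0.001. The 9 and the 14, and the 15 of the block below, include Psmb11, whose call is not read as a rise. With the embryo as a replicate block they were 15, without the Het embryo and KO 3 (chosen after seeing the data) 20 with 10281 genes called in all, and 22 and 11559 with the replicate block added. Leaving out each embryo in turn gave 4 to 16 proteasome genes and 2916 to 9770 genes in all, with 6 without WT or Het, 4 without KO 1 or KO 2 and 16 without KO 3. No fold change of the 9 genes called here changed sign. Psmd10, called higher without the Het embryo and KO 3 (0.49), had -0.07 without WT and -0.11 without KO 2. Over 36 genes and their alternatives, 565 results kept their side of the threshold, 53 passed it newly and 23 no longer passed.

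KO against WT called 0 proteasome genes under each alternative run. Among all genes, leaving out a KO embryo gave 0 to 47 in control, with 47 without KO 1, 41 without KO 2 and 0 without KO 3. With doxorubicin, 30 became 5 with DESeq2 or upper-quartile scaling, 16 with total counts, 4 with a filter of 5 counts in 2 libraries, 46 at an FDR of 0.05 and 0 in a fit of all libraries. Without KO 1 or KO 2 that fit had no residual degree of freedom and gave no count. The interaction gave 7 genes with the replicate block, 0 to 13 with a KO embryo left out (13 without KO 1 or KO 2), and 0 proteasome genes in each. The replicate block changed no other call of a proteasome gene than those given above. The cause of these differences was not tested.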
